A study of Mus musculus with 7 samples.

Results

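Of the 32285 genes counted in all 7 libraries of a mouse brain microvessel study, 7 genes of the nitric oxide and cyclic GMP pathway were taken by their gene symbols: Nos3, Nos1, Gucy1a1, Gucy1b1, Prkg1, Pde5a and Pde3a. These 7 genes were chosen with earlier results of these data known. Their levels were followed from the endothelial segments, the source of nitric oxide in a vessel wall, to pericytes and smooth muscle cells, the receivers. The tissue was 1 cerebral hemisphere per library from untreated wild-type C57Bl6 mice, an inbred laboratory strain, without cerebellum, brain stem or olfactory bulbs. It was dissociated with collagenase, and vessel fragments and cells were pulled out with magnetic beads carrying an antibody to CD31, the endothelial surface protein encoded by Pecam1. The groups were 3 libraries from mice aged 12 months and 4 libraries from mice aged 3 months, with no other treatment or allele in either. The sources used here do not say that each library came from a different mouse, so p-values measure the spread between libraries.

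Nitric oxide is a short-lived gas made from arginine by nitric oxide synthases. Endothelial synthase (Nos3) and neuronal synthase (Nos1) are both switched on by calcium and calmodulin. The gas diffuses into neighbouring contractile cells and binds soluble guanylate cyclase, a pair of an α subunit and a β subunit, which then makes cyclic GMP. Cyclic GMP activates the protein kinase of Prkg1, which lowers calcium and relaxes the cell. Pde5a encodes the phosphodiesterase that breaks down cyclic GMP, and Pde3a encodes one that breaks down cyclic AMP and is inhibited by cyclic GMP. In brain arteries and arterioles this pathway is known for setting vessel tone and blood flow.

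Messenger RNA was counted as unique molecular identifiers (UMIs), a tag given to each captured molecule, so that copies of 1 molecule count once. Totals ran from 8706961 UMIs (12 months, replicate 1) to 44861008 UMIs (3 months, replicate 3), and 37176 cells were kept. Median depth per cell ran from 1094 to 5328 UMIs, and it was 1094, 2780 and 1808 at 12 months against 3073, 5328, 4558 and 4906 at 3 months. Index type and Cell Ranger version also changed with age, so age and library set cannot be told apart. Replicates 1 and 2 at 3 months held Xist and no Ddx3y, the other 5 libraries the reverse, so sex is unbalanced too. Between 1 and 24 barcodes were shared by any pair of libraries. Clusters named from marker genes held 2678 arterial, 14831 capillary and 2061 venous endothelial cells, 805 pericytes and 1225 smooth muscle cells. UMIs were summed over the cells of each class in each library and are given as CPM, a gene's UMIs scaled to the same total in every sum. In such sums fewer cells expressing a gene and less RNA per cell cannot be told apart.

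The pericyte clusters carried pericyte markers (leading genes Atp13a5, Abcc9, Vtn and Kcnj8), and all 12 endothelial markers of the list were summed in them as well. Endothelial markers made up 15987, 17325 and 12398 CPM of pericyte sums at 12 months against 19658, 20603, 21950 and 20985 CPM at 3 months. Capillary cells held 24600 to 32100 CPM of the same markers and smooth muscle cells 858 to 2460 CPM. Pericyte sums therefore contain endothelial RNA, and the comparison of pericytes with smooth muscle cells is given again in cells with under 1% of UMIs from these markers.

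The 7 genes lie on 4 chromosomes (GRCm38, GENCODE annotation). Nos3 (ENSMUSG00000028978) spans chr5:24364810-24384474 on the plus strand, and its 3′ end overlaps Atg9b, which runs the other way from 24384181 to 24392143. Nos1 (ENSMUSG00000029361) spans chr5:117781032-117958840, plus strand. Gucy1a1 (ENSMUSG00000033910), the α1 subunit, spans chr3:82092427-82145789, and Gucy1b1 (ENSMUSG00000028005), the β1 subunit, spans chr3:82032006-82074689, both on the minus strand. Those 2 genes are neighbours, separated by 17737 bases with 0 annotated genes between them. Prkg1 (ENSMUSG00000052920) spans chr19:30564489-31765033 on the minus strand and contains Cstf2t on the opposite strand. Pde5a (ENSMUSG00000053965) spans chr3:122728947-122859374 and Pde3a (ENSMUSG00000041741) chr6:141249269-141507448, both on the plus strand. No source at hand says whether counting used the strand, so reads of Nos3 and Atg9b are uncertain where they overlap. Atg9b itself averaged 2.30 CPM in arterial cells, 1.90 CPM in capillary cells and 0 CPM in smooth muscle cells.

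Because the 2 cyclase genes are neighbours whose levels moved together across the vascular classes, a promoter window of each is shown. That of Pde5a, which followed them less closely, is given beside them. Each window runs from 250 bases before to 50 bases after a gene's start, 5′ to 3′ along the gene, from RefSeq on GRCm38.p6, and E-boxes (CANNTG on both strands) are in capitals.
Gucy1b1, chr3:82074662-82074961, minus strand: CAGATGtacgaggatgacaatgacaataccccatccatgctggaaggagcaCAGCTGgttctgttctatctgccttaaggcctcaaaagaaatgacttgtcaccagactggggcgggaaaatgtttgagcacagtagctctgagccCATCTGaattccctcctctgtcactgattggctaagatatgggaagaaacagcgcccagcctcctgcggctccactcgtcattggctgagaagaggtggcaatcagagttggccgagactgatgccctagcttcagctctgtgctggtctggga
Gucy1a1, chr3:82145601-82145900, minus strand: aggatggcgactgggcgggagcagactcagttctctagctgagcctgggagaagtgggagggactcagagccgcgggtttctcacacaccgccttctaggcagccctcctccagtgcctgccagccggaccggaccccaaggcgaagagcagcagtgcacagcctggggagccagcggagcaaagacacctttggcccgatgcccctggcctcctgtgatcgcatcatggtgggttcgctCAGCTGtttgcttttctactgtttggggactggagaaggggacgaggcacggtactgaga
Pde5a, chr3:122728908-122729207, plus strand: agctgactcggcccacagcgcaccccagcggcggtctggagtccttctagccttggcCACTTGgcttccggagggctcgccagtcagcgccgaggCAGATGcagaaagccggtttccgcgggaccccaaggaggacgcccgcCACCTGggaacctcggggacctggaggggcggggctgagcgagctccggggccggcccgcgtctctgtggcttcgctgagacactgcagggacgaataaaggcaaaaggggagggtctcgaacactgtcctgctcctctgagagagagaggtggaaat
The Gucy1b1 and Pde5a windows hold 3 E-boxes each and the Gucy1a1 window shown 1, and 72.3% of 32851 promoter windows of this length hold at least 1. Each of the 3 windows shown also holds a GC box (GGGCGG, either strand), as do 35.7% of all windows. A second Gucy1a1 window, chr3:82145024-82145323, is not shown and holds 0 E-boxes and 0 GC boxes. No E-box overlaps a GC box. The CArG box, the motif of serum response factor in smooth muscle genes, is in none of the 7 windows found for 5 of the members and in 1.63% of all windows. These matches describe the letters of the windows only.

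**Figure D1:**
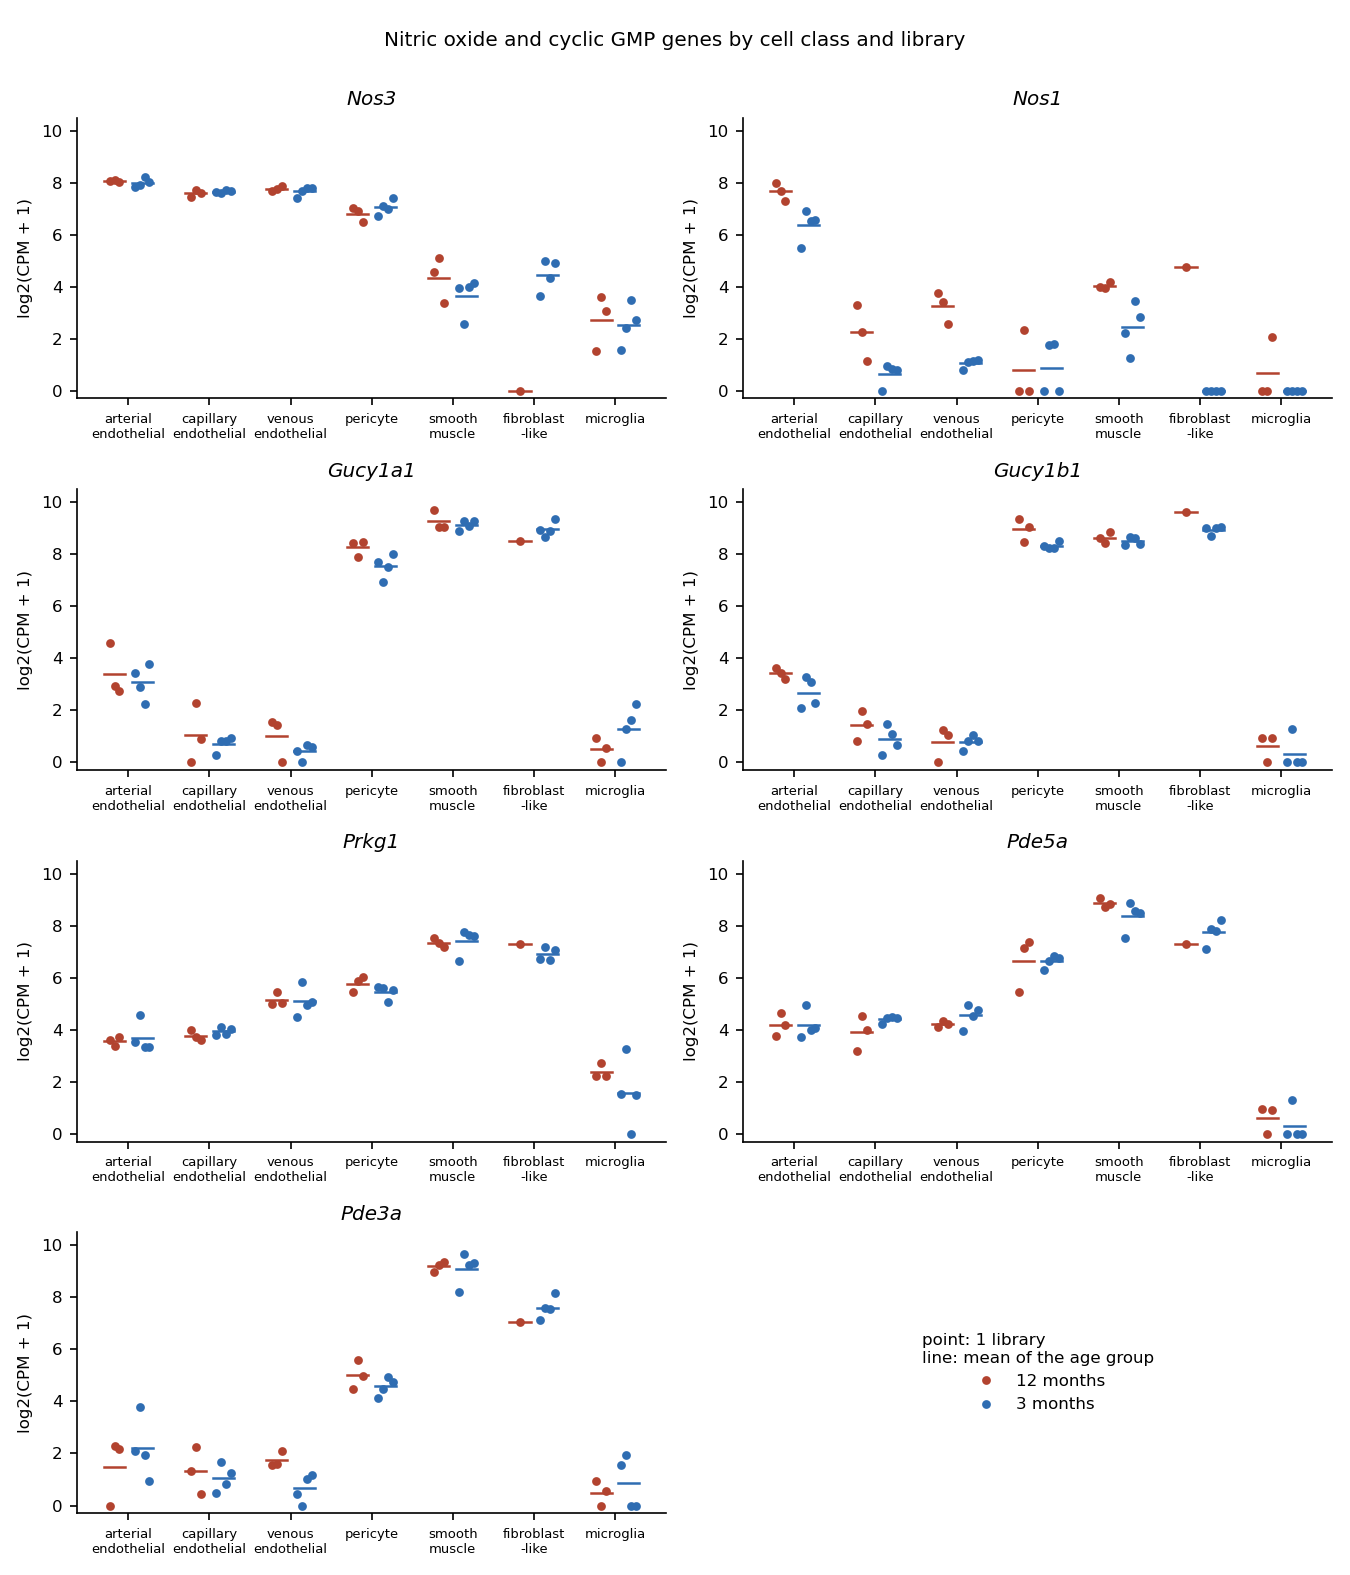
Level of each gene as log2(CPM + 1) in 7 cell classes, with 12-month libraries in red left of 3-month libraries in blue, a point for each library and a line for the mean of an age group. Both synthases were highest in arterial endothelial cells, and the cyclase, kinase and phosphodiesterase genes were highest in mural and fibroblast-like cells.

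Nos3, the endothelial synthase, was found along the whole endothelium and was highest at its arterial end. In arterial cells it stood at 265, 276 and 256 CPM at 12 months against 224, 239.7, 297 and 261 CPM at 3 months. In capillary cells it stood at 171, 208 and 195 CPM at 12 months against 196, 191, 209.6 and 204 CPM at 3 months. All 7 libraries had more Nos3 in arterial than in capillary cells, and the arterial and capillary ranges did not overlap. The arterial mean of 259.7 ± 23.6 CPM exceeded the capillary mean of 197 ± 13.2 CPM (SD, n = 7 each) by 0.38 ± 0.06 on the log2 scale (SE; edgeR quasi-likelihood test, adjusted p = 8.95e-05). Venous cells averaged 209.7 ± 21.9 CPM, and arterial cells exceeded them by 0.27 ± 0.06 on the log2 scale (adjusted p = 0.00164). Venous against capillary cells missed the threshold (log2 0.11 ± 0.07, adjusted p = 0.229).

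Within the arterial cells Nos3 was not even. Cluster E9, led by Fbln5, Cytl1, Bgn, Mgp and the elastin gene Eln, had 359.6, 430.1 and 419 CPM at 12 months against 379, 269.5, 571 and 419 CPM at 3 months. Cluster E5, led by Ccn3, S100a6 and Gkn3, had 219, 259.8 and 242 CPM at 12 months against 195, 236, 271 and 239.8 CPM at 3 months. E9 exceeded E5 in all 7 libraries, a description, since the clusters were drawn from the same cells. At the low end stood cluster E7, unnamed and led by Plvap and Esm1, with 88.5, 99.8 and 110.4 CPM at 12 months against 49.0, 114, 129 and 108 CPM at 3 months.

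Pericyte sums held 128, 120.1 and 88.3 CPM of Nos3 at 12 months against 103, 137, 127 and 169.6 CPM at 3 months. Those values lay below every capillary value, and endothelial markers were present in the same sums (values above). Per 1000 endothelial marker UMIs, pericytes held 6.83 ± 1.05 Nos3 UMIs and capillary cells 6.77 ± 0.629 (SD, n = 7 each), a mean log2 difference of 0.00 with 3 of 7 libraries higher (exact sign-flip test over libraries, two-sided p = 0.969). On this scale arterial cells held 10.3 ± 0.889, higher than capillary cells in 7 of 7 libraries (log2 0.61, exact sign-flip test, p = 0.0156, the smallest 7 libraries allow, adjusted over 14 such tests 0.0273). Venous cells held 9.47 ± 1.03, also higher than capillary cells in 7 of 7 libraries (log2 0.48, exact sign-flip test, p = 0.0156, adjusted 0.0273), although their Nos3 per total UMIs missed the threshold. The scale depends on the markers too, which averaged 25200 CPM in arterial, 29200 CPM in capillary and 22200 CPM in venous cells. A ratio per marker UMI rises where the markers are fewer, so it is not a level of Nos3 alone. Pericytes with under 1% endothelial markers held 40.3 and 23.3 CPM of Nos3 at 12 months (replicates 2 and 3) against 0, 0 and 8.76 CPM at 3 months (replicates 2 to 4), from 13 UMIs in all. Smooth muscle cells averaged 16.5 ± 9.09 CPM and microglia 6.04 ± 3.71 CPM (n = 7 each).

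With each cell thinned to 1000 UMIs, 20.9% ± 2.34 of arterial cells, 17.99% ± 1.70 of capillary cells and 18.6% ± 2.31 of venous cells had a Nos3 UMI (SD over 7 libraries). Smooth muscle cells, at 1.01% ± 0.540, and microglia, at 0.451% ± 0.395, gave the background. Without thinning 62.4% ± 16.4 of arterial cells had a Nos3 UMI. Median depth before thinning ran from 1608 to 8636 UMIs in arterial cells and from 1195 to 5089 UMIs in microglia.

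**Figure D2:**
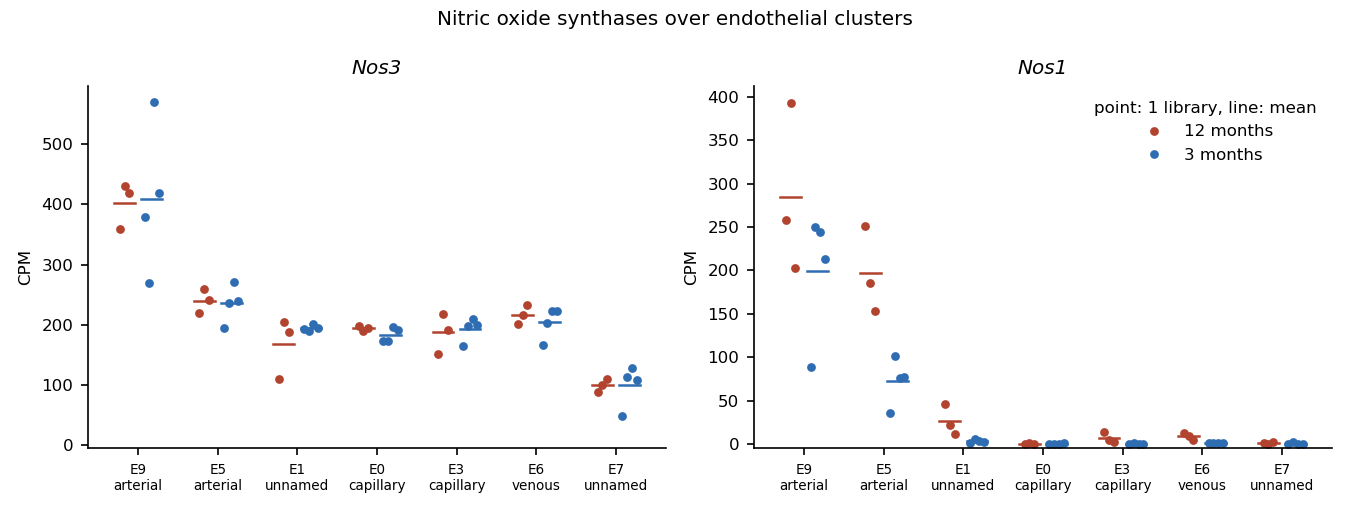
Nos3 and Nos1 in CPM over 7 endothelial clusters, with 12-month libraries in red left of 3-month libraries in blue, a point for each library and a line for the mean of an age group. Nos3 was present in every cluster shown, whereas Nos1 reached 88.2 to 393 CPM in arterial cluster E9 and was near 0 in capillary cluster E0. Clusters E2 and E4 are not shown.

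Nos1, named for neurons, was sharply placed in the arterial endothelium. Arterial cells held 253, 205 and 157 CPM at 12 months against 43.5, 118, 90.9 and 93.3 CPM at 3 months. Capillary cells held 8.93, 3.82 and 1.22 CPM at 12 months against 0, 0.903, 0.781 and 0.753 CPM at 3 months. Every arterial value lay above every capillary value. The difference was 6.34 ± 0.17 on the log2 scale (adjusted p = 1.01e-16), and arterial cells exceeded venous cells by 5.18 ± 0.18 (adjusted p = 1.91e-13).

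Neuron markers, 7 genes, together came to 4.26 to 14.7 CPM in the same arterial sums. Rbfox3 was at 0 in 4 and Tubb3 in 6 of the 7 arterial sums. Nos1 UMIs were found in 10.7% ± 6.27 of arterial cells thinned to 1000 UMIs, against 0.226% ± 0.307 of capillary cells and 0.0473% ± 0.125 of microglia (n = 7 libraries). Without thinning 31.8% ± 8.17 of arterial cells had one, with median depths between 1326 and 8520 UMIs. Cells with both synthases occurred: of 315 thinned arterial cells with a Nos1 UMI, 27.3% also had a Nos3 UMI, against 20.6% of those without, pooled over libraries and given with no test.

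Between arterial clusters the gene followed the order of Nos3. Cluster E9 had 258, 393 and 203 CPM of Nos1 at 12 months against 88.2, 250.5, 245 and 213 CPM at 3 months. Cluster E5 had 250.9, 186 and 153 CPM at 12 months against 35.3, 102, 76.4 and 77.2 CPM at 3 months. Cluster E1, unnamed and led by Unc5b, Tgfb2, Hey1 and Alpl, had 46.4, 22.0 and 11.5 CPM at 12 months against 1.42, 5.90, 3.09 and 2.77 CPM at 3 months. E1 stood between arterial and capillary values, and its ages did not overlap.

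Turning to the receivers, the 2 subunits of guanylate cyclase were found mainly in mural cells, the pericytes and smooth muscle cells that wrap the endothelium. Gucy1a1 in smooth muscle cells stood at 827, 524 and 531 CPM at 12 months against 469, 624, 542 and 614 CPM at 3 months. Pericytes held 340.1, 237 and 355 CPM of it at 12 months against 206, 121, 179 and 256 CPM at 3 months. The pericyte values all lay below the smooth muscle values. Arterial cells averaged 9.65 ± 6.48 CPM, capillary cells 1.05 ± 1.27 CPM and venous cells 0.729 ± 0.781 CPM (n = 7 each).

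Gucy1b1 had another balance. In pericytes it stood at 659, 356 and 529 CPM at 12 months against 317, 303, 301 and 362 CPM at 3 months. In smooth muscle cells it stood at 389, 347 and 459 CPM at 12 months against 325, 406, 389 and 331 CPM at 3 months. Pericytes were higher in 4 of 7 libraries and the groups overlapped. Arterial cells averaged 7.47 ± 2.99 CPM, capillary cells 1.31 ± 0.938 CPM and venous cells 0.768 ± 0.463 CPM. Within the endothelium clusters E7 and E9 stood higher. E7 held 36.8, 23.0 and 30.5 CPM at 12 months against 25.6, 26.4, 17.5 and 34.3 CPM at 3 months. E9 held 0, 33.1 and 12.3 CPM at 12 months against 15.6, 28.5, 38.4 and 8.05 CPM at 3 months, from 32 UMIs in all.

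Fibroblast-like cells, with at least 20 cells in 5 libraries, held 475 ± 107 CPM of Gucy1a1 and 551 ± 138 CPM of Gucy1b1. They exceeded pericytes in both genes in 5 of 5 libraries, with all pericytes taken. Pericytes with under 1% endothelial markers averaged 570 ± 177 CPM of Gucy1a1 and 951 ± 192 CPM of Gucy1b1 (SD, n = 5). Those means lay above the fibroblast-like means, over partly different libraries. The fibroblast-like sums also held 12900 to 28900 CPM of mural markers, whose part in these levels was not tested.

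The proportion of the subunits was therefore set side by side within each library. Pericytes held 0.516, 0.667 and 0.671 Gucy1a1 UMIs per Gucy1b1 UMI at 12 months against 0.649, 0.398, 0.595 and 0.706 at 3 months. Smooth muscle cells held 2.12, 1.51 and 1.16 at 12 months against 1.44, 1.54, 1.39 and 1.86 at 3 months. The classes did not overlap in this ratio. Pericytes averaged 0.600 ± 0.109 and smooth muscle cells 1.57 ± 0.320 (SD, n = 7 each), with 0 of 7 libraries higher in pericytes (mean log2 difference -1.39 ± 0.45, SD; exact sign-flip test, two-sided p = 0.0156, the smallest possible, adjusted 0.0273). UMIs of 2 genes are not a ratio of proteins, and the number is read only between classes. In pericytes with under 1% endothelial markers the difference was -1.32 ± 0.52, again lower in each of 5 libraries, where the smallest possible p is 0.0625.

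**Figure D3:**
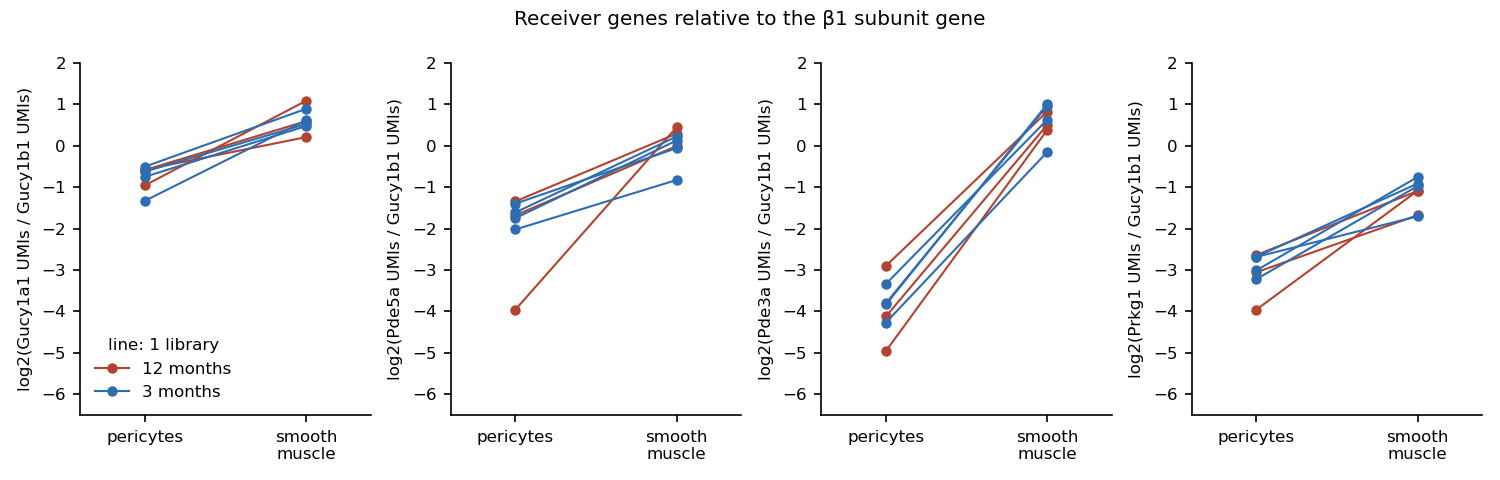
UMIs of Gucy1a1, Pde5a, Pde3a and Prkg1 per Gucy1b1 UMI, on a log2 axis, in pericytes (left) and smooth muscle cells (right), with a line for each library, 12 months in red and 3 months in blue. All 28 lines slope up from pericytes to smooth muscle cells.

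Downstream genes leaned still more to smooth muscle. Prkg1, the cyclic GMP kinase, stood at 42.5, 57.3 and 63.7 CPM in pericytes at 12 months against 49.4, 47.3, 32.3 and 45.1 CPM at 3 months. Smooth muscle cells held 183, 163 and 144 CPM at 12 months against 99.99, 216, 198 and 196 CPM at 3 months. The classes did not overlap. Venous cells averaged 35.1 ± 11.2 CPM of Prkg1, capillary cells 13.7 ± 1.80 CPM and arterial cells 12.1 ± 4.96 CPM (n = 7 each). Venous exceeded capillary cells in 7 of 7 libraries by 1.35 ± 0.11 on the log2 scale (adjusted p = 8.24e-09), and arterial cells were below venous cells by -1.62 ± 0.13 (adjusted p = 1.52e-08). Among endothelial segments, then, the synthases were highest in arterial cells and the kinase in venous cells.

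Pde5a, which ends the cyclic GMP signal, stood at 42.5, 141 and 165 CPM in pericytes at 12 months against 78.2, 99.3, 114 and 108 CPM at 3 months. Smooth muscle cells held 531, 425 and 458 CPM at 12 months against 184, 474, 374 and 361 CPM at 3 months. The lowest smooth muscle value, of 3-month replicate 1, lay just above the highest pericyte value. The 3 endothelial segments averaged 18.1 ± 6.65 CPM (arterial), 18.1 ± 5.03 CPM (capillary) and 20.9 ± 5.48 CPM (venous), with fold changes between them that missed the threshold.

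Pde3a had the steepest gradient. Pericytes held 21.3, 47.8 and 30.4 CPM at 12 months against 16.5, 21.3, 29.9 and 26.0 CPM at 3 months. Smooth muscle cells held 505, 614 and 650.4 CPM at 12 months against 293, 813, 600.2 and 644 CPM at 3 months. The lowest smooth muscle value was far above the highest pericyte value. Arterial cells averaged 3.92 ± 4.22 CPM and capillary cells 1.48 ± 1.22 CPM.

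**Figure D4:**
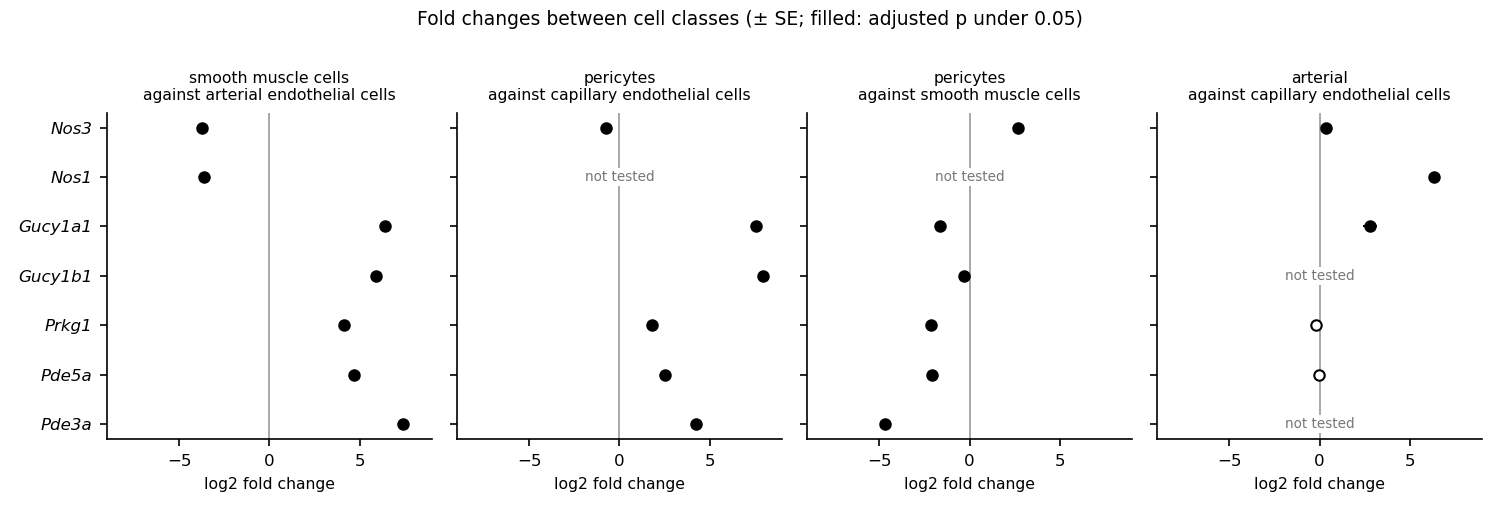
Log2 fold changes of the 7 genes in 4 comparisons of cell classes (± SE, often within the symbol), filled where the adjusted p was under 0.05. Synthases lie left of 0 and all 5 receiver genes right of 0 in smooth muscle against arterial cells, whereas 5 of 6 genes tested lie left of 0 or near it in pericytes against smooth muscle cells, with Nos3 the exception.

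Tested over all genes with the library as a term, smooth muscle cells differed from arterial cells in all 7 members, where 63.0% of 9060 genes tested passed (33.4% higher and 29.6% lower). All 5 receiver genes were higher: Pde3a by 7.39 ± 0.21 on the log2 scale (adjusted p = 2.1e-16), Gucy1a1 by 6.38 ± 0.16 (5.73e-17), Gucy1b1 by 5.93 ± 0.13 (1.15e-17), Pde5a by 4.68 ± 0.12 (6.19e-17) and Prkg1 by 4.11 ± 0.14 (2.89e-15). Nos3 was lower by -3.75 ± 0.18 (adjusted p = 4.03e-13) and Nos1 by -3.65 ± 0.19 (1.26e-12).

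Pericytes against capillary cells gave 6 of 6 members tested past the threshold, against 26.4% of all genes tested (12.9% higher and 13.5% lower), and Nos1 had too few UMIs to be tested. Gucy1b1 was higher by 7.98 ± 0.18 (adjusted p = 5.21e-24) and Gucy1a1 by 7.57 ± 0.22 (1.32e-21). Pde3a was higher by 4.26 ± 0.32, Pde5a by 2.54 ± 0.14 and Prkg1 by 1.78 ± 0.17. Nos3 was lower by -0.74 ± 0.11 (adjusted p = 3.54e-06).

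Pericytes against smooth muscle cells gave 6 of 6 tested members, beside 50.7% of all genes (22.9% higher and 27.8% lower). Pde3a was lower in pericytes by -4.69 ± 0.16 (adjusted p = 2.26e-16), Prkg1 by -2.16 ± 0.16 (1.28e-10), Pde5a by -2.08 ± 0.14 (1.77e-11) and Gucy1a1 by -1.66 ± 0.15 (2.42e-09). Nos3 was higher by 2.66 ± 0.22 (adjusted p = 7.26e-10). Gucy1b1 was lower by -0.33 ± 0.12 (adjusted p = 0.0195), the opposite of its CPM means of 404 ± 137 and 378 ± 47.7, which are not scaled by the trimmed mean of M-values (TMM). That call is fragile: the adjusted p was 0.0688 to 0.218 with 12-month replicate 2 or any one of the 3-month replicates left out and 0.745 with doublets kept.

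With cells under 1% endothelial markers, Gucy1b1 changed sides. Pericytes then held 709 and 782 CPM at 12 months (replicates 2 and 3, 87 and 207 cells) against 1140.3, 1056 and 1069 CPM at 3 months (replicates 2 to 4, 23, 52 and 42 cells). Smooth muscle cells held 381, 364 and 462 CPM at 12 months against 341, 408, 383 and 333 CPM at 3 months. Every pericyte value lay above every smooth muscle value, and the log2 fold change was 1.01 ± 0.12 (adjusted p = 2.99e-12). Gucy1a1 lost its call (log2 -0.23 ± 0.13, adjusted p = 0.139). Nos3 averaged 14.5 ± 17.3 CPM in these pericytes (0 CPM in 2 of 5 libraries) against 11.3 ± 7.55 CPM in such smooth muscle cells (n = 7), with overlapping values and too few UMIs for a test.

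The 3 downstream genes stayed lower in these pericytes. Pde3a was lower by -3.41 ± 0.19, Prkg1 by -1.17 ± 0.20 and Pde5a by -0.99 ± 0.16 on the log2 scale, each past the threshold. Gucy1b1 is thus the only receiver gene tested whose direction turned between the 2 ways of taking pericytes.

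**Figure D5:**
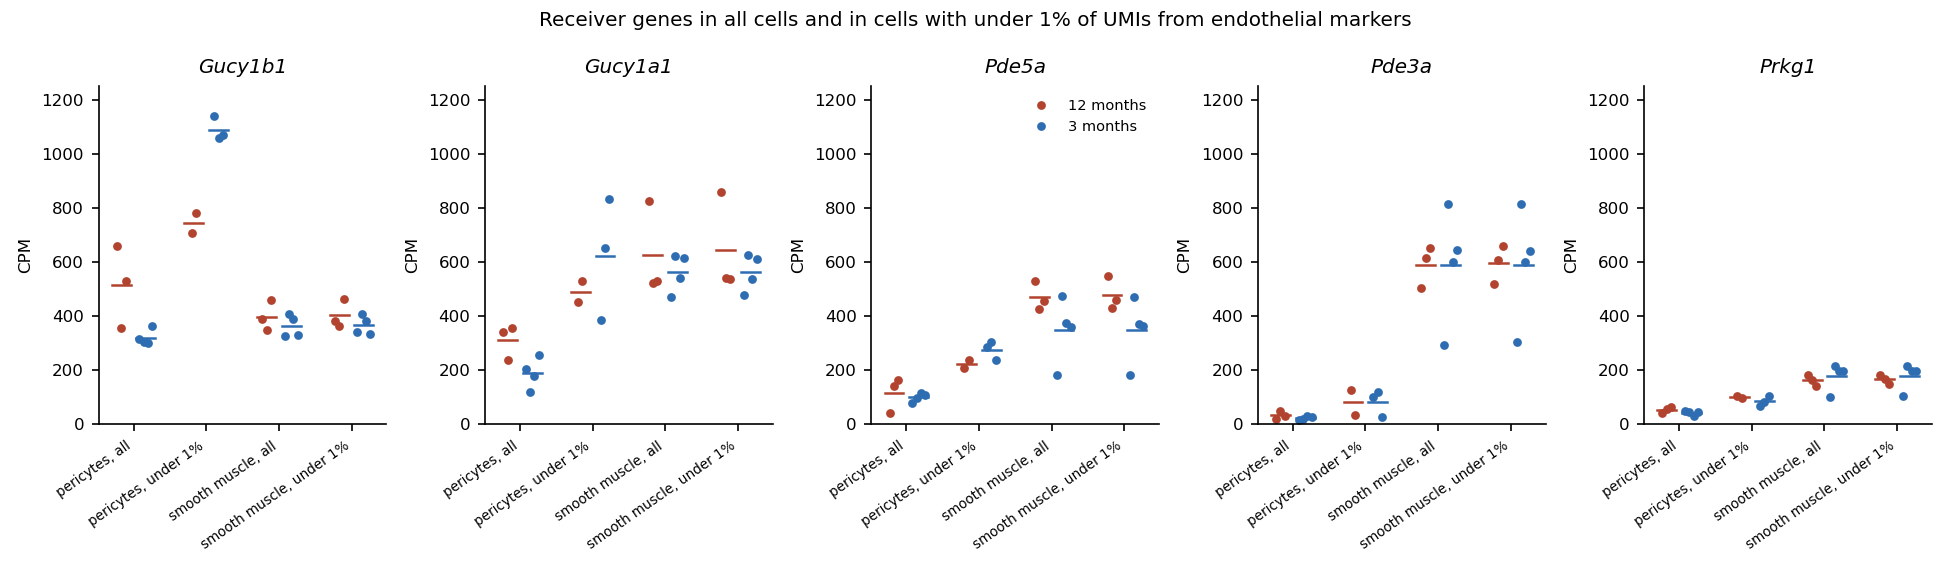
CPM of 5 receiver genes in pericytes and smooth muscle cells, for all cells of the class and for cells with under 1% of UMIs from endothelial markers, with 12-month libraries in red left of 3-month libraries in blue and a line for each age mean. Gucy1b1 in pericytes of the second kind stood between 709 and 1140.3 CPM, above all smooth muscle values, whereas Pde3a stayed below them.

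The share of cells with a UMI told the subunits apart in the same way. Thinned to 1000 UMIs, 44.7% ± 10.99 of pericytes had a Gucy1b1 UMI, against 29.7% ± 5.61 of smooth muscle cells (SD, n = 6 and n = 7 libraries, since 12-month replicate 1 kept under 20 pericytes). A Gucy1a1 UMI was found in 30.4% ± 9.85 of pericytes against 44.7% ± 5.78 of smooth muscle cells. Pde3a was found in 4.66% ± 2.69 of pericytes against 44.4% ± 8.40 of smooth muscle cells. Microglia, which should lack these genes, stayed at 0.0979% ± 0.214 or below for the 3. Unthinned shares were 77.1% ± 12.6 against 73.4% ± 17.5 for Gucy1b1 and 61.7% ± 11.6 against 82.9% ± 9.12 for Gucy1a1. Median depth before thinning ran from 1672 to 5653 UMIs in pericytes and from 1430 to 7726 UMIs in smooth muscle cells. Of 744 thinned pericytes from all libraries, those with a Gucy1b1 UMI had a Gucy1a1 UMI in 40.2%, against 25.4% of those without. In smooth muscle cells the 2 figures were 42.1% and 44.9%.

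Between endothelial segments fewer members differed. Arterial against capillary cells gave 3 of 5 tested members (37.7% of all genes tested, 19.7% higher and 18% lower), namely Nos1, Nos3 and Gucy1a1, which was 2.77 ± 0.39 higher (adjusted p = 7.5e-06) at 9 to 27 UMIs per arterial sum. Cluster E9 averaged 39.4 ± 30.8 CPM of Gucy1a1 and cluster E5 5.47 ± 6.69 CPM (n = 7 each), and E9 was higher in 7 of 7 libraries. Smooth muscle markers in arterial sums ran from 66.3 to 1100 CPM, and their part in that Gucy1a1 difference was not tested. Venous against capillary cells gave 1 of 3 (41.5% of all genes, 20.7% higher and 20.8% lower), Prkg1, which was higher. Arterial against venous cells gave 3 of 4 (41.7% of all genes, 20.9% higher and 20.8% lower), Nos1 and Nos3 higher and Prkg1 lower.

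Across the 35 sums of 5 vascular classes and 7 libraries, Gucy1a1 and Gucy1b1 had a Pearson correlation of 0.98 in log2(CPM + 1). Pde5a and Pde3a had 0.95, and Nos3 was inverse to Pde3a at -0.91. Sums of 1 class resemble each other, so these figures describe the order of classes and carry no p. Among 7342 other genes, those most like Nos3 were Fgd5 (0.98), Cdh5 (0.98), Tek (0.98) and Acvrl1 (0.97), of which Cdh5 and Tek are endothelial junction and receptor genes. Those most like Nos1 were Clu (0.94), Azin1 (0.91), Sybu (0.90) and Fbln5 (0.89), and Clu and Fbln5 are among the arterial markers that named the clusters.

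For Gucy1a1 the nearest were Ppp1r14a (0.98), an inhibitor of myosin phosphatase, Gucy1b1, Fads3 and Cd63. For Gucy1b1 they were Lhfp (0.99), Rgs4 (0.99), Plcl1 (0.99) and Pdgfrb (0.98), the receptor that marks mural cells. For Pde3a they were Crispld2 (0.98), Dgkb, Rgs7bp and Des (0.98), and Des encodes the muscle filament desmin. Pde5a was nearest to Rgs7bp (0.97), Mgat3, Rgs6 and Kcnj12. Prkg1 had the loosest neighbours, Mark1 (0.95), Fam110b, Sgcb and Peli2. Cdh5, Pdgfrb and Des, like Clu and Fbln5, are among the markers that named the clusters, so their likeness is no separate evidence of cell type.

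The wider pathway was taken as 8 lists with 116 genes in all, members included. Counts per list include the members that a list holds, such as Pde5a among the phosphodiesterases. They therefore partly repeat the results above. In smooth muscle against arterial cells, genes of the kinases and their targets were higher in 14 and lower in 2 of 17 tested, with a median of 3.64 on the log2 scale against 0.05 over all genes, of which 33.4% were higher and 29.6% lower. Among them were Pln, the brake on the calcium pump of the sarcoplasmic reticulum, at 1259 ± 242 CPM in smooth muscle against 3.64 ± 3.90 CPM in arterial cells (log2 8.63 ± 0.29), and Kcnma1, the large-conductance potassium channel, at 88.9 ± 28.5 against 0.407 ± 0.586 CPM (log2 7.66 ± 0.25). Rgs4, which shortens G protein signals, was higher by 7.39 ± 0.17, and among the phosphodiesterases the calmodulin-dependent Pde1a was higher by 7.74 ± 0.23.

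On the source side of that comparison, all 8 tested receptors upstream of Nos3 were lower in smooth muscle, with a median of -3.41, beside 29.6% of all genes. S1pr1, the sphingosine phosphate receptor, stood at 38.6 ± 23.7 CPM in smooth muscle against 878 ± 137 CPM in arterial cells (log2 -4.36 ± 0.17). Genes of tetrahydrobiopterin and arginine supply were lower in 8 and higher in 1 of 11 tested. Gch1, which starts synthesis of that synthase cofactor, was lower by -4.30 ± 0.20, and Ddah1, which clears a natural synthase inhibitor, by -4.26 ± 0.23. Abcc4, an exporter of cyclic nucleotides, was lower by -3.86 ± 0.19. Nos3 partners were higher in 4 and lower in 7 of 12, and phosphodiesterases higher in 7 and lower in 2 of 11, beside the 33.4% of all genes that were higher and 29.6% that were lower.

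In pericytes against smooth muscle cells, kinases and targets were higher in 2 and lower in 14 of 17 tested (median -2.31 against -0.05 over all genes, of which 22.9% were higher and 27.8% lower). Pln stood at 3.68 ± 6.16 CPM in pericytes against 1259 ± 242 CPM in smooth muscle (log2 -8.36 ± 0.27). Kcnma1 was lower by -5.66 ± 0.37, Ppp1r12b, a myosin phosphatase subunit, by -4.93 ± 0.19 and Csrp1 by -4.93 ± 0.13. Of 8 upstream receptors tested, 7 were higher in pericytes, beside 22.9% of all genes, led by Kdr, the VEGF receptor (3.83 ± 0.22), and Ramp2, a partner of the adrenomedullin receptor (3.70 ± 0.21). Ddah1 (4.63 ± 0.28) and the synthase trafficking gene Nostrin (3.73 ± 0.17) were higher as well. These 4 are genes of endothelial cells, and endothelial markers were also higher in the pericyte sums.

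In pericytes against capillary cells, phosphodiesterases were higher in 9 and lower in 2 of 13 tested (median 1.00 against -0.01 over all genes, of which 12.9% were higher and 13.5% lower). Pde8b, which breaks down cyclic AMP, stood at 234 ± 105 CPM in pericytes against 1.24 ± 0.608 CPM in capillary cells (log2 7.48 ± 0.15), and Pde4d was higher by 2.81 ± 0.22. Rgs4 was higher by 7.61 ± 0.17. Of 8 upstream receptors tested, 6 were lower and 1 was higher, beside 13.5% and 12.9% of all genes, with Kdr at -0.93 ± 0.11 and S1pr1 at -0.80 ± 0.13. Nostrin (-0.86 ± 0.10) and the arginine transporter Slc7a1 (-0.81 ± 0.11) were lower. Endothelial markers were lower in the pericyte sums as well (values above), and their part in these differences was not tested.

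Along the endothelium, Nos3 partners were higher in arterial than capillary cells in 7 and lower in 1 of 12 tested (median 0.27 against -0.01 over all genes, of which 19.7% were higher and 18% lower). Cyb5r3, a reductase that keeps guanylate cyclase able to bind nitric oxide, stood at 319 ± 31.0 CPM in arterial against 141 ± 21.9 CPM in capillary cells (log2 1.17 ± 0.06). Ass1, which remakes arginine, was 1.96 ± 0.12 higher, Crip1 1.48 ± 0.10 and S1pr1 0.70 ± 0.07. Slc7a1 was lower at 156 ± 54.2 CPM in arterial against 509 ± 128 CPM in capillary cells (log2 -1.74 ± 0.08), as were Kdr (-1.44 ± 0.09), Nostrin (-1.40 ± 0.07) and Pde2a (-0.79 ± 0.09). Slc7a1 and Ddah2 also separated the segments further on: Slc7a1 was lower in venous than capillary cells (-1.46 ± 0.08) and Ddah2 higher in arterial than venous cells (1.05 ± 0.07). Calcrl, the adrenomedullin and CGRP receptor, was higher in venous than capillary cells (0.97 ± 0.08) and lower in arterial than venous cells (-1.44 ± 0.09).

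The last question was how the genes differed between mice of 12 and 3 months, with the limits on age given above. Of the members tested, 0 of 4 passed in capillary cells (3.65% of all genes), 0 of 6 in arterial cells (0.277%), 0 of 6 in pericytes (1.98%) and 0 of 7 in smooth muscle cells (0.225%). At an unadjusted p under 0.05, 0, 1, 2 and 2 of these members passed. DESeq2 called 0, 1, 0 and 0. Shares of all genes at these settings were not set beside the counts, so the counts are not read as results about the members.

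The 1 arterial gene was Nos1, whose values at both ages are given above and did not overlap. It averaged 205 ± 48.2 CPM at 12 months (n = 3) against 86.5 ± 31.3 CPM at 3 months (n = 4), a log2 fold change of 1.27 ± 0.26 with an adjusted p of 0.0685 by edgeR's quasi-likelihood test. DESeq2 gave 0.00194, and over all alternatives with a value the adjusted p ran from 9.47e-06 to 0.952. In 5 libraries without Xist it was 1.25 ± 0.21 (adjusted p = 0.0488). Cluster E5 alone gave 1.44 ± 0.26 (adjusted p = 0.0218) and cluster E9 alone 0.52 ± 0.32 (0.952). E9 made up 33.9%, 12.2% and 7.68% of arterial cells at 12 months against 13.1%, 31.3%, 11.1% and 15.8% at 3 months. The smallest of the 12-month shares of thinned arterial cells with a Nos1 UMI was 12.3% (95% exact interval 9.77 to 15.3), and the largest at 3 months was 8.90% (5.90 to 12.8), intervals that cover counting error only.

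In venous cells Nos1 was the 1 of 4 tested members that passed (2.58% of all genes). It stood at 12.5, 9.56 and 4.86 CPM at 12 months against 0.735, 1.14, 1.201 and 1.25 CPM at 3 months, from 13, 28 and 9 UMIs against 2, 3, 8 and 5. The ages did not overlap and the fold change was 3.02 ± 0.42 on the log2 scale (adjusted p = 9.05e-04). The 14 arterial markers in the same venous sums came to 655, 476 and 401 CPM at 12 months against 199, 197, 212 and 270.0 CPM at 3 months, also with no overlap. Their part in the venous Nos1 difference was not tested.

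Nos3 varied little with age in any endothelial segment, at log2 0.10 ± 0.19 in arterial, 0.06 ± 0.15 in capillary and 0.19 ± 0.18 in venous cells, none past the threshold. In pericytes, Gucy1a1 differed by 0.67 ± 0.25 (adjusted p = 0.202) and Gucy1b1 by 0.58 ± 0.24 (0.251), and the 12-month values of Gucy1b1 overlapped those at 3 months. Mural markers in these sums came to 18920, 20950 and 29671 CPM at 12 months against 13488, 11654, 13773 and 15350 CPM at 3 months, with no overlap, and endothelial markers ran the other way. In pericytes with under 1% endothelial markers both differences had the opposite sign, at -0.39 ± 0.21 for Gucy1a1 (adjusted p = 0.628) and -0.56 ± 0.21 for Gucy1b1 (0.263). There Gucy1b1 was below all 3-month values in both 12-month libraries (values above). In smooth muscle cells the same genes differed by 0.11 ± 0.22 and 0.10 ± 0.20.

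The difference of the age effects was itself tested. Between smooth muscle cells and pericytes, 2 of 7 members passed (3.78% of all genes). For Gucy1a1 the age effect in smooth muscle minus that in pericytes was -0.68 ± 0.20 (adjusted p = 0.0239), and for Nos3 it was 1.29 ± 0.37 (0.0254). Endothelial markers differed in the direction of Nos3, which is opposite to that of Gucy1a1. They were lower at 12 months in pericytes (values above). In smooth muscle cells they stood at 1597, 2460 and 1913 CPM at 12 months against 1440, 947, 1488 and 858 CPM at 3 months. In cells with under 1% endothelial markers the Gucy1a1 value was 0.26 ± 0.22 (adjusted p = 0.927), of opposite sign, and 0 members passed. Neither gene kept its call in the 5 libraries without Xist. Between arterial and capillary cells 0 of 7 members passed (1.04% of all genes), by DESeq2 too, with 1 at an unadjusted p under 0.05, Nos1 at -1.16 ± 0.44.

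Of the listed genes outside the 7, few passed by age. Crip1 was higher in capillary cells at 12 months, at 529 ± 61.4 CPM against 340.4 ± 51.3 CPM (log2 0.76 ± 0.16, adjusted p = 0.0199). Pde4b, which breaks down cyclic AMP, was higher in venous cells at 108 ± 35.5 against 37.3 ± 9.95 CPM (1.66 ± 0.24, 0.00145). In pericytes Pde8b stood at 328 ± 79.7 against 164 ± 47.1 CPM (1.03 ± 0.24, 0.0257) and Rgs4 at 736 ± 145 against 367 ± 42.5 CPM (0.98 ± 0.23, 0.0276). Both were higher in pericytes than in capillary cells, and the mural markers of the same sums stood higher at 12 months without overlap (values above). Their part in these calls was not tested. In the smooth muscle minus pericyte difference of age effects, Abcc4 (1.83 ± 0.46), S1pr1 (1.71 ± 0.26), Kdr (1.65 ± 0.32) and Ramp2 (1.45 ± 0.25) were higher, all of them abundant in endothelial cells, and Rgs4 was lower (-0.65 ± 0.18). In the arterial minus capillary difference Insr, the insulin receptor, was higher (0.74 ± 0.13, adjusted p = 0.00227).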

How the data were processed

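Single-cell RNA libraries (10x 3′ chemistry) of brain microvessels were deposited as UMI counts per gene and barcode. Per the file headers, Cell Ranger 4.0.0 made the 12-month counts and Cell Ranger 6.1.1 the 3-month counts. The build was mm10, per the submitters' processing notes. Strand and intron settings of the counting: not given in the sources used here. Barcodes with at least 500 genes and at most 15% mitochondrial UMIs were kept. Doublets were removed with scrublet (scanpy 1.11.5, python 3.11.15), expecting 0.8% per 1000 barcodes. Cells were clustered with Seurat 5.3.0 (R 4.3.3, 2000 variable features, 30 components, resolution 0.5), and 17 of 24 clusters were named from marker genes. The remaining 7, with 11344 cells, stayed unnamed. Thresholds for naming were set after cells had been seen.

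Counts were summed per class and library where a class had at least 20 cells. The sums were tested over all genes with edgeR 4.0.16 (quasi-likelihood test, TMM scaling, filterByExpr, Benjamini-Hochberg adjustment, called at an adjusted p under 0.05). Comparisons of classes had the library as a term, and differences of age effects had library, class and their age interaction. Ratios were compared by exact sign-flip tests over libraries, computed with numpy 2.4.6 and chosen after seeing the data. Exact binomial intervals were made with scipy 1.17.1. CPM scale each gene's counts to the same total in every sum, and correlations used log2(CPM + 1). Alternatives included DESeq2 1.42.0, no filter, kept doublets, at least 1000 genes per cell, thinned sums, resolution 1.0, cells with under 1% markers of the other lineage and each library left out. Restrictions to libraries without Xist and to single arterial clusters were added after seeing the data. Counts were also simulated from each gene's mean CPM over the compared sums. Real differences between classes, ages and libraries, other than in total UMIs, were thus left out. On these counts the test of pericytes against smooth muscle cells recovered 87.6% of genes changed by 1 on the log2 scale (7512 genes, 10 false calls). That of age in smooth muscle cells recovered 49.5% (8123 genes, 12 false calls).

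The 7 genes and all lists were chosen with earlier results of these data known. Besides the members, up to 4 listed genes with the highest and 4 with the lowest fold change were named per comparison, if called and at a mean of at least 50 CPM in the higher group. A result that this rule also named is not reported here. For likeness, the 4 genes with the highest correlation were named.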

Additional observations from a re-analysis of the deposited data

Results flagged for a closer look

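Among 35 groups of 4 libraries (7 genes, 5 vascular classes, 3 months), 4 held a library far from the other 3, where chance flags about 1 in 20 groups (gap over range above Dixon's 0.829). Nos3 in smooth muscle cells was low in replicate 2, at 4.93 CPM. Nos1 in capillary cells was 0 CPM in replicate 1. Prkg1 in arterial cells was high in replicate 2, at 23.0 CPM. Pde5a in capillary cells was low in replicate 1, at 17.6 CPM.

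Age effects differed between smooth muscle cells and pericytes, by the test of the difference itself, for Gucy1a1 (-0.68 on the log2 scale, edgeR adjusted p = 0.0239) and for Nos3 (1.29, adjusted p = 0.0254). Endothelial markers in the same sums differed in the direction of Nos3, opposite to that of Gucy1a1. In cells with under 1% of these markers the Gucy1a1 difference was 0.26 (adjusted p = 0.927), of opposite sign, Nos3 had too few UMIs for a test and no member passed.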

How the results depend on the processing

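Of 72 tests of single members, 29 were called, and 25 of these kept call and direction under every alternative that gave a value. A call counts as kept where an alternative left its member untested. Nos3 in pericytes against smooth muscle cells is such a case, untested in cells with under 1% endothelial markers. Over all alternatives 936 fold changes kept direction and side of the threshold, 14 gained a call, 21 lost one and 50 reversed, of which 47 were called in neither setting. The cause of the changes below was not tested, except that thinning leaves fewer UMIs and no filter tests more genes. Counts below are given without the members tested or the share of all genes called in the same setting. They are therefore not read as results about the members. With sums thinned to the smallest, members called fell to 2 of pericytes against smooth muscle cells, 1 of pericytes against capillary cells, 0 for age in venous cells and 0 for the smooth muscle minus pericyte age difference, and 1 (Nos1) was called for age in arterial cells. Without a filter they were 5 (arterial against capillary), 2 (venous against capillary), 6 (arterial against venous), 1 (age, capillary) and 1 (age, arterial). With doublets kept they were 2 (venous against capillary), 1 (age, capillary), 0 (smooth muscle minus pericyte age difference) and 1 (arterial minus capillary age difference). With at least 1000 genes per cell they were 1 (age, capillary) and 0 (smooth muscle minus pericyte). DESeq2 gave 1 for age in arterial cells and 0 for smooth muscle minus pericyte. Libraries without Xist gave 1 for each of those 2, and cluster E5 alone gave 1 for age in arterial cells. With under 1% markers of the other lineage, smooth muscle minus pericyte gave 0.

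Of the fold changes called in either setting, 3 reversed: Gucy1b1 in pericytes against smooth muscle cells to 1.01 (under 1% markers), and Gucy1a1 in the smooth muscle minus pericyte age difference to 0.26 (under 1% markers) and 0.013 (thinned). Leaving out each library in turn gave 2 to 5 members for arterial against capillary cells, 0 to 1 for age in capillary cells, 0 to 1 for age in arterial cells and 0 to 3 for smooth muscle minus pericyte. Nos1 in arterial cells passed by age without 3-month replicate 1 (adjusted p = 0.0135) or replicate 2 (0.0325). By medians in place of means, the class with the highest level stayed the same for 6 of 7 members. Replicate numbers only name libraries: same-numbered libraries of the 2 ages correlated at -0.035 to 0.191, and with the number as a block the members called by age were 0 in capillary, 0 in arterial, 1 in venous cells, 0 in pericytes and 0 in smooth muscle cells. Depth limits pericytes most, since 12-month replicate 1 had 27 of them.

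The 47 other reversals missed the threshold throughout, 42 of them by age, on the log2 scale as follows. With doublets kept they were Prkg1 0.18 (arterial against capillary cells), Pde3a -0.24 (age in pericytes), Pde3a 0.027 (age in smooth muscle cells), Pde5a 0.089 and Pde3a 0.31 (smooth muscle minus pericyte) and Prkg1 0.0078 (arterial minus capillary). At resolution 1.0 it was Prkg1 0.028 (arterial against capillary cells). With thinned sums they were Pde5a -0.054 (venous against capillary cells), Prkg1 0.14 (age in capillary cells) and Prkg1 0.0013 (smooth muscle minus pericyte). Without a filter it was Nos3 -0.0029 (age in capillary cells). In cluster E9 alone they were Nos3 -0.020 and Gucy1a1 -0.91 (age in arterial cells). In libraries without Xist they were Prkg1 0.36 (age in arterial cells) and Prkg1 0.47 (arterial minus capillary). With the replicate number as a block they were Pde5a -0.030 (age in arterial cells) and Pde3a 0.082 (age in smooth muscle cells). With under 1% markers of the other lineage they were Gucy1a1 -0.39, Gucy1b1 -0.56, Pde5a -0.29 and Pde3a -0.21 (age in pericytes). In the same cells they were Gucy1b1 0.71, Pde5a 0.49 and Pde3a 0.20 (smooth muscle minus pericyte). With at least 1000 genes per cell they were Pde3a 0.0093 (age in smooth muscle cells) and Nos3 -0.055 (arterial minus capillary). By DESeq2 it was Pde5a 0.050 (smooth muscle minus pericyte). With each library left out in turn the ranges were -0.17 to 0.053 for Pde5a (arterial against capillary cells), -0.027 to 0.14 for Nos3 (age in capillary cells), -0.28 to 0.72 for Gucy1a1, -0.41 to 0.26 for Prkg1, -0.25 to 0.46 for Pde5a (age in arterial cells) and -0.050 to 0.44 for Prkg1 (age in venous cells). They were -0.11 to 0.21 for Gucy1a1, -0.026 to 0.17 for Gucy1b1, -0.21 to 0.19 for Pde3a (age in smooth muscle cells), -0.13 to 0.83 for Nos1 (smooth muscle minus pericyte), -2.001 to 0.30 for Gucy1a1, -0.73 to 0.0018 for Gucy1b1 and -0.23 to 0.32 for Prkg1 (arterial minus capillary).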

Other observations

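An unnamed cluster of 271 cells, A14, was led by Olfr558. Its 10 leading genes held Gkn3, Ccn3 and Tmem100, which also led arterial cluster E5, beside Casq2, Ano1 and Nos1. Markers were scored as their mean level relative to the highest cluster. In E5 pericyte markers scored 0.00567 and smooth muscle markers 0.00496, and in A14 they scored 0.314 and 0.164. The Nos1 level of A14 is thus not that of a purely arterial cluster. In the 4 libraries with at least 20 of its cells, Nos1 stood at 192 and 158 CPM at 12 months (replicates 2 and 3) against 78.6 and 151 CPM at 3 months (replicates 2 and 3). Nos3 in the same sums stood at 206 and 185 CPM at 12 months against 194 and 223 CPM at 3 months. Its median depth was higher than that of any named endothelial cluster, and whether it holds doublets was not tested.

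Pde5a and Pde3a also changed place relative to Gucy1b1. Pericytes had fewer UMIs of each per Gucy1b1 UMI than smooth muscle cells in 7 of 7 libraries, by a mean log2 difference of -1.99 ± 1.09 for Pde5a and -4.48 ± 0.57 for Pde3a (SD; exact sign-flip test, p = 0.0156 each, adjusted 0.0273).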
